A study of Mus musculus with 27 samples.

Results

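The splicing factors and hnRNPs described here are 94 probe sets of 68 mouse genes, among 12488 probe sets on the array. They are the probe sets whose single annotated gene symbol starts with Srsf, Sfrs, Hnrn, Snrp, Sf3a, Sf3b, Prpf, U2af or Rbm and a digit, or is Cirbp, Tra2a, Tra2b, Ptbp1, Sfpq or Nono. No probe set with a single symbol of Tra2a or Ptbp1 was found, so these were not analysed here, and 10 probe sets that pair a name of this kind with other symbols were not used. RNA was measured on 27 Affymetrix U74v2 arrays from NIH/3T3 cells, an established mouse fibroblast line, at 9 time points with 3 arrays each, 1 from each of 3 experiments that the labels call biological replicates. All cultures had their serum lowered in steps and then received forskolin, which turns on adenylyl cyclase and so increases cAMP, at 15 µM for 2 h in medium without serum. They were rinsed and kept without serum, and flasks were harvested at 0 h, the end of the pulse, and at 6, 12, 18, 24, 30, 36, 42 and 48 h. The 0 h cells had therefore already received forskolin, no unpulsed culture was analysed here, and time after the pulse and time without serum cannot be told apart.

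Pre-mRNA splicing removes introns in the spliceosome, which is built from small nuclear ribonucleoproteins (snRNPs) and many non-snRNP proteins. SR proteins mostly bind exonic enhancers and help recruit the U1 snRNP and U2AF, whereas heterogeneous nuclear ribonucleoproteins (hnRNPs) coat nascent transcripts and often oppose exon inclusion. Many of these genes regulate their own mRNA through splicing of unproductive isoforms. The arrays measure the amount of transcript a probe set detects, and neither splicing itself nor protein.

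The members fall into 8 groups by role. The SR proteins and Tra2b were measured by 17 probe sets of 10 genes, the hnRNPs by 22 of 16 genes, and the paraspeckle proteins Sfpq and Nono by 7. The Sm and snRNP proteins had 10 probe sets of 8 genes, the U2-associated proteins SF3a, SF3b and U2AF 13 of 11 genes, and the PRPF proteins 10 of 8 genes. Cirbp, the cold-inducible RNA-binding protein, had 1, and the other RBM proteins had 14 of 12 genes. In all, 20 genes had several probe sets, with up to 5 for Sfpq. A filter on low mean intensity kept 80 probe sets of 66 genes. The 14 that it removed were both of Prpf39, 2 each of Srsf1 and Sfpq, and 1 each of Hnrnpab, Hnrnpdl, Hnrnpu, Rbm14, Rbm22, Rbm39, Snrpb and Snrpb2. Names ending in _s_at, _f_at or _r_at mark probe sets that the manufacturer lists as shared between transcripts, shared within a gene family or made under relaxed rules, so their signal may include related transcripts. One member, Snrp1c-ps2, carries a pseudogene's name.

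Values below are log2 intensities after quantile normalization. A change is a difference of log2 values with its standard error from limma, and a member is called where the limma p-value, adjusted by Benjamini-Hochberg over all 7453 probe sets tested, was under 0.05. All changes from 0 h share the same 3 arrays at 0 h. The arrays of one experiment deviated together, so the fit with the experiment as a block is given beside each count.

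Every array had a trimmed mean intensity near 500 (499.9), so a change of total RNA per cell would not be seen. All 14 fibroblast markers on the array passed the filter, against 1 of 7 epithelial, 1 of 6 endothelial, 2 of 7 leukocyte, 3 of 6 skeletal muscle and 4 of 7 neuronal and glial markers. Actin 3′ to 5′ ratios, a measure of RNA integrity, lay between 1.11 and 1.73. In experiment 1 the clock output gene Tef stood at 9.48 at 18 h and 11.45 at 30 h, opposite to experiment 2 (11.08 and 9.82) and experiment 3 (11.02 and 10.40). Whether these 2 arrays carry each other's label was not tested. Without them 4 members were called for change over the course, and 7, 11, 6 and 1 were called at 6, 12, 24 and 48 h against 0 h, in that order. Here and below, counts without these 2 arrays are given without the share of all probe sets called. They therefore do not compare the members with the background.

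RefSeq promoter sequences (assembly GRCm38.p6) were matched for 60 of the 68 genes, with 74 transcription starts. They are shown for the 3 genes with the largest called falls at 12 h and for the only member called higher then, because forskolin acts through cAMP and the factor CREB, which binds TGACGTCA or its core TGACG. Capitals mark TGACG and the CCAAT box on either strand, so that CGTCA and ATTGG are matches on the other strand. Each sequence is the 250 bases before the start, on the gene's strand: Sfpq at chr4:127021051-127021300 (+), Srsf2 at chr11:116853095-116853344 (−), Snrpa1 at chr7:66060086-66060335 (+) and Prpf6 at chr2:181601069-181601318 (+).
Sfpq: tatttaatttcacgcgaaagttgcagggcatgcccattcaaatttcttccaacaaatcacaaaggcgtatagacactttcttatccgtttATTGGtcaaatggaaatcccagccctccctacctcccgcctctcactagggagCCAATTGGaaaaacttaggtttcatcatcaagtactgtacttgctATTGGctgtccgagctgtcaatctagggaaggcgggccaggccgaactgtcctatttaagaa
Srsf2: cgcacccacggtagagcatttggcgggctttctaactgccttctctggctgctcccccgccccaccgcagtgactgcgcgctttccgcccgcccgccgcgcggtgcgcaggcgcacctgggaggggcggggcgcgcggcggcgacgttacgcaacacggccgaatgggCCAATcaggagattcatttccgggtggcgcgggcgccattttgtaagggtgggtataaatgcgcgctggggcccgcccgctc
Snrpa1: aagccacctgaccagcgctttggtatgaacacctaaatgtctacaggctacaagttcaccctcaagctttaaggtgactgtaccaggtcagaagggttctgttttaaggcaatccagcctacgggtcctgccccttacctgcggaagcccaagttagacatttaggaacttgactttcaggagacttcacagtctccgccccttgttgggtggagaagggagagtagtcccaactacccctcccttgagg
Prpf6: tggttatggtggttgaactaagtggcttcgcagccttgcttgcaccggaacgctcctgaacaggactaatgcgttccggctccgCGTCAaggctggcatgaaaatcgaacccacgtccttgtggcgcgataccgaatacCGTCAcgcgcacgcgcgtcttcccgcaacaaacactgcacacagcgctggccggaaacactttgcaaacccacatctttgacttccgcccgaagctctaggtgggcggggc
The Sfpq window held 4 CCAAT matches, of which a pair overlaps in CCAATTGG, and no TGACG. The Srsf2 window held 1 CCAAT match, the Snrpa1 window neither motif, and the Prpf6 window 2 TGACG matches, both on the other strand. Among all member genes matched, 53.3% had a CCAAT in at least 1 window and 46.7% a TGACG, whereas the whole TGACGTCA was found for 1 gene, Snrpg. Per start, CCAAT was in 51.4% of the 74 member windows and in 33.8% of all 32851 windows of the table, TGACG in 43.2% and 17.8%, and TGACGTCA in 1.35% and 1.55%. Of the other motifs counted, GGGCGG (GC box) was in 60.8% and 32.7%, GCGGAAG (ETS-like) in 17.6% and 4.43%, and CACGTG (E-box) in 2.70% and 6.02%. A higher share in the member windows was thus not particular to TGACG and CCAAT. The table also holds windows of non-coding genes, and a match is only a match of letters.

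After the pulse the transcripts of several splicing factors were lower than at 0 h, and the count was highest at 12 h. At 6 h 7 members were lower and none was higher than at 0 h, which is 8.75% of the 80 tested. Of all probe sets, 6.09% were called then, 3.7% higher and 2.39% lower. At 12 h 10 members were lower and 1 was higher, 13.8% and, for the lower ones alone, 12.5% of 80. Of all probe sets, 8.33% were called, 4.6% higher and 3.73% lower. At 24 h 5 members were lower, or 6.25%, where 6.92% of all probe sets were called, 4.08% higher and 2.84% lower. At 48 h 1 member was lower, or 1.25%, where 7.9% of all were called, 4.67% higher and 3.23% lower. Over 6, 12 and 24 h, 13 probe sets of 10 genes were called lower or higher than at 0 h. Of these, 6 were called at both 6 and 12 h, and 3 at all of 6, 12 and 24 h. The same counts were not made over all probe sets, and these comparisons share their 0 h arrays. They therefore do not show whether repeated calls were more common among the members.

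With the experiment as a block more members were called at each time, as were more of all probe sets. At 6 h 13 members were lower and 1 was higher, where 16.7% of all probe sets were called, 9.97% higher and 6.74% lower. At 12 h 18 were lower (22.5% of 80) and 3 higher, where 20.4% of all probe sets were called, 10.9% higher and 9.5% lower. At 24 h 13 were lower and 2 higher, where 18.6% of all were called, 10.6% higher and 7.96% lower. At 48 h 10 were lower and 4 higher, where 19.8% of all were called, 10.7% higher and 9.07% lower. The counts depended on which experiments entered the fit. Without the block, the members called at the same 4 times numbered 5, 11, 5 and 2 without experiment 1, they numbered 1, 1, 1 and 0 without experiment 2, and there was none at any of them without experiment 3. With the block, 12 h kept 20 calls without experiment 1, 12 without experiment 2 and 11 without experiment 3. Here and below, counts with an experiment left out are given without the share of all probe sets called. They therefore do not compare the members with the background. Of the 37 calls given for single probe sets below, 1 held without experiment 2 and none without experiment 3, and with the block 34 held without experiment 1, 25 without experiment 2 and 16 without experiment 3. All 37 kept their direction in each of these settings. After median centring in place of quantile normalization, the 6 h calls of Sf3b3, Hnrnpdl and Srsf2 94017_s_at were lost.

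The 80 tested had a median change of −0.12 at 6 h and −0.20 at 12 h. By 24 h it was −0.11, and by 48 h −0.06. The median of all probe sets was 0.01 at 12 h. At 12 h 59 of the 80 were below their 0 h mean, including those that were not called. By experiment, the 12 h median of the members was −0.13, −0.28 and −0.17 in experiments 1, 2 and 3, and at 42 h it was −0.13, −0.01 and 0.00. The median thus lay below 0 in all 3 experiments at 12 h and close to 0 in 2 of them at 42 h. The sign at 12 h was the same with the intensities as deposited (−0.19) and after median centring (−0.22).

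**Figure D1:**
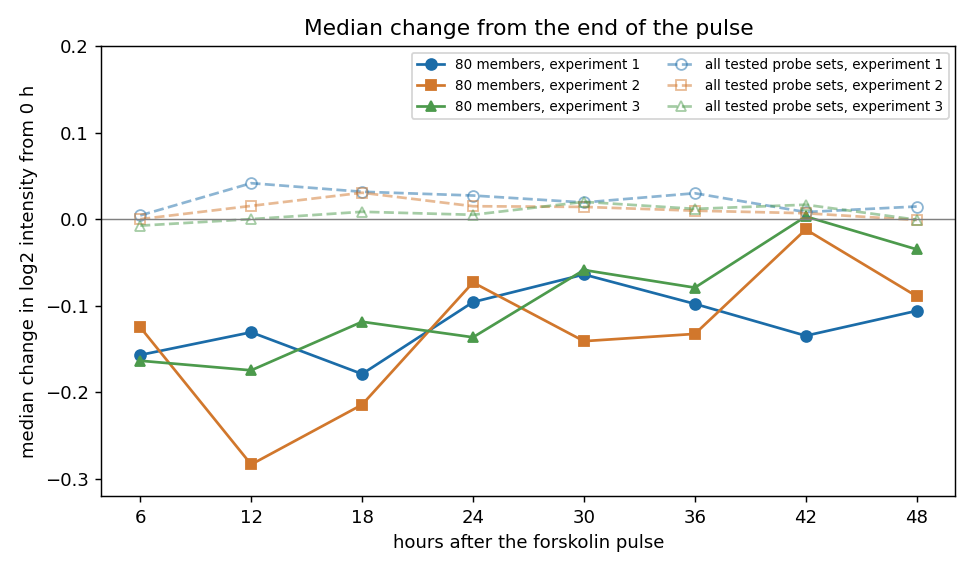
Median change in log2 intensity from 0 h (y axis) at each time after the pulse in hours (x axis), for the 80 members tested (solid lines) and for all probe sets tested (dashed lines) in each of the 3 experiments. The members' medians at 12 h are −0.13, −0.28 and −0.17, while those of all probe sets lie between 0.00 and 0.04 there.

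The time at which each member stood lowest was also counted. The lowest of the 9 time means was at 12 h for 23 members, 28.75% of the 80, against 12.3% of all probe sets, and at 0 h for 7 members, 8.75% against 23.9%. The highest mean was at 0 h for 31 members, 38.75% against 20.8% of all probe sets, and at 48 h for 13. The range of the time means ran from 0.11 to 1.50 over the members, with a median of 0.54, against 0.55 over all probe sets. It was under 1 for 75 of 80 members (93.75%) and for 86.7% of all probe sets.

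**Figure D2:**
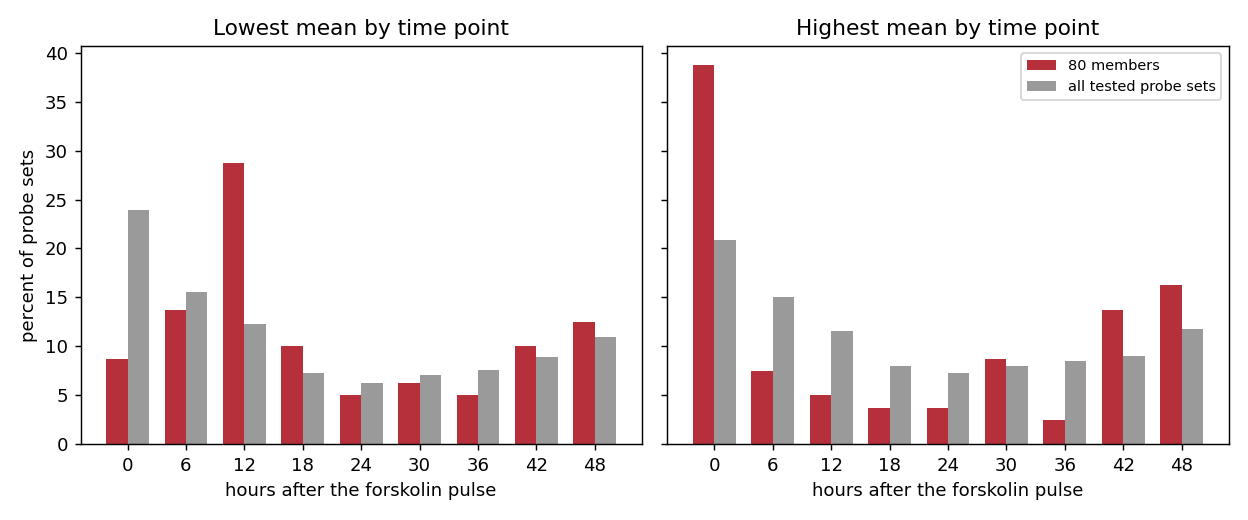
Percent of probe sets (y axis) whose lowest (left) or highest (right) time mean fell at each time after the pulse in hours (x axis), for the 80 members (red) and all probe sets tested (grey). At 12 h the lowest-mean bar is 28.75% for the members and 12.3% for all probe sets, and at 0 h the highest-mean bar is 38.75% and 20.8%.

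Proliferation markers and the actin ratio were read over the same hours. The mean log2 intensity of 17 proliferation genes over the first 4 time points was 9.48, 9.19, 8.74 and 8.12, and by 48 h it stood at 8.37. Of the 16 that were tested, 4 were called lower at 12 h and 7 at 24 h, and with the block 8 and 15. Their level over single arrays ran from 7.89 to 9.72. The actin ratio was 1.15, 1.32 and 1.61 over the 12 h arrays, against 1.35, 1.48 and 1.70 at 0 h, each set in ascending order. Their part in the members' changes was not tested. In these bulk samples, fewer cells that express a gene and less RNA per cell cannot be told apart.

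**Figure D3:**
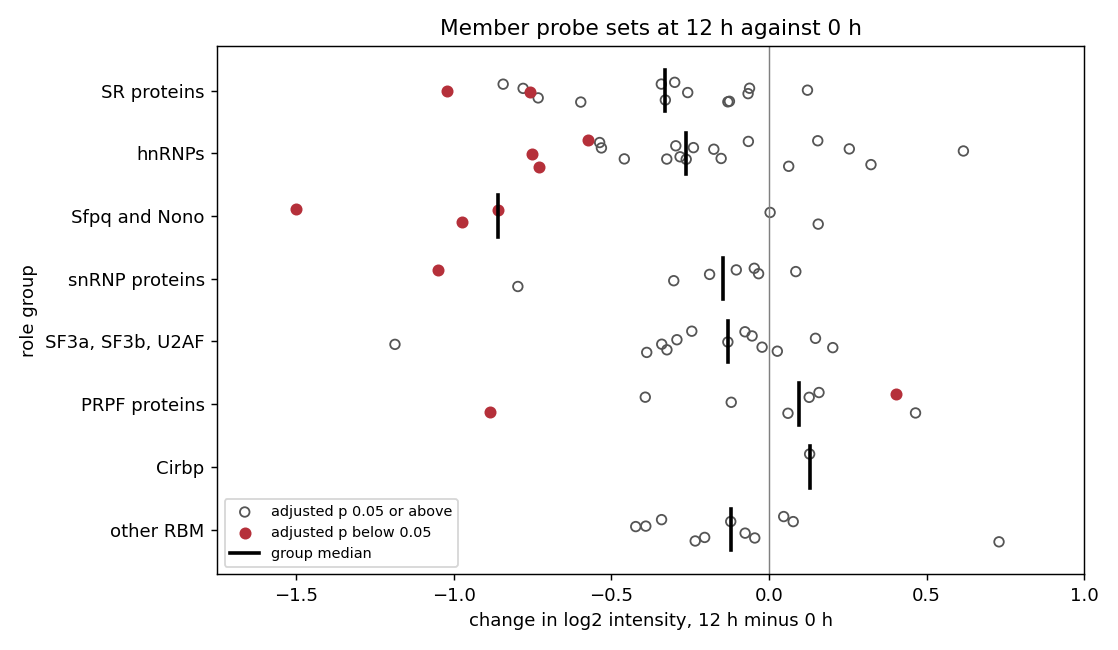
Change in log2 intensity at 12 h minus 0 h (x axis) for each member probe set tested, by role group (y axis); filled red points have an adjusted p below 0.05, open points do not, and black bars are group medians. Sfpq lies farthest left at −1.50, and the only red point right of 0 is Prpf6 at 0.40.

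Sfpq, a protein of paraspeckles that binds pyrimidine-rich RNA and takes part in splicing and transcription, had the largest change from 0 h at 12 h of the 80 members tested. Its probe set 99620_at read 6.89, 6.77 and 6.57 at 12 h in experiments 1, 2 and 3, against 8.42, 8.06 and 8.25 at 0 h. The deposited intensities behind these values were 117.3, 94.1 and 77.6 at 12 h, against 337.9, 241.8 and 281.4 at 0 h. All 3 arrays at 12 h lay more than 1 log2 unit below the lowest at 0 h, and their mean was close to the lowest mean kept by the filter (6.77), so the size of the fall is less certain than its direction. The change was −1.50 ± 0.24 (SE, n = 3 each), with an adjusted p of 0.000234. At 6 h the values were 7.87, 7.30 and 7.21, at 24 h 7.30, 7.40 and 7.18, and at 48 h 7.92, 7.86 and 7.61. The values at 24 h and 48 h thus lay between those of 12 h and 0 h. At 18 h the mean was 7.17, but the deposited intensity in experiment 2 was 87.6, below its 94.1 at 12 h. The change from 0 h was −0.78 ± 0.24 at 6 h (adjusted p = 0.0526, and 0.00694 with the block), −0.95 at 24 h (adjusted p = 0.0154) and −0.45 at 48 h (adjusted p = 0.321). This probe set also varied over the course as a whole, with an adjusted p of 0.00748 for the F test over the 9 time means.

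The other Sfpq probe sets moved the same way. Probe set 99621_s_at read 9.69, 9.06 and 9.18 at 12 h, against 10.44, 9.92 and 10.15 at 0 h, a change of −0.86 ± 0.18 (adjusted p = 0.00349). Its arrays at 12 h did not overlap those at 0 h. It was also lower at 6 h (−0.76 ± 0.18, adjusted p = 0.0104) and at 24 h (−0.66, adjusted p = 0.0266), and it varied over the course (adjusted p = 0.0307). Probe set 102144_f_at read 7.61, 6.75 and 7.21 at 12 h, against 8.57, 7.74 and 8.17 at 0 h, a change of −0.97 ± 0.26 (adjusted p = 0.0185). Each experiment fell by a similar amount from its own 0 h value, and experiment 1 stood above the other two at both times. Over the 27 arrays the 3 probe sets correlated with r between 0.745 and 0.819, values that share their arrays and their target. The remaining 2 Sfpq probe sets, 161579_r_at and 97161_at, were below the filter.

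Nono, the partner with which Sfpq forms dimers, was not called at 6, 12, 24 or 48 h. Its probe set 93830_at read 12.18, 12.10 and 12.24 at 12 h, against 12.05, 11.99 and 12.01 at 0 h, and its adjusted p over the course was 0.696. The 12 h arrays stood slightly above those at 0 h. With the block, its mean on day 2 (30 to 48 h) was below that of day 1 (6 to 24 h), with a difference of −0.18 (adjusted p = 0.0273, against 0.0981 without). Probe set 93831_at differed mainly between experiments, with means of 10.08, 9.52 and 9.34 in experiments 1, 2 and 3, and the experiment accounted for 72.2% of its variance.

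Among the SR proteins, 2 of 15 probe sets tested were called lower at 12 h, both of Srsf2, and 6 were with the block. The median change of the group was −0.33 at 12 h and −0.20 at 6 h, with 14 of 15 below 0 at both times. Srsf2 (SC35) marks nuclear speckles, where splicing factors are stored. Its probe set 95791_s_at read 10.66, 9.73 and 9.76 at 12 h, against 11.01, 11.12 and 11.07 at 0 h, a change of −1.02 ± 0.20 (adjusted p = 0.00182). Experiments 2 and 3 were well over 1 log2 unit lower at 12 h, and experiment 1 was lower by far less, without overlap between the times. At 6 h it read 10.54, 10.14 and 10.05, a change of −0.82 ± 0.20 (adjusted p = 0.012), and at 24 h 10.35, 10.62 and 9.96, a change of −0.76 (adjusted p = 0.0201). At 48 h it read 10.59, 10.60 and 10.82, and the change was −0.40 (adjusted p = 0.27). It varied over the course with an adjusted p of 0.036.

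The second Srsf2 probe set, 94017_s_at, read 12.74, 12.51 and 12.24 at 12 h, against 13.07, 13.56 and 13.14 at 0 h. Its change was −0.68 ± 0.16 at 6 h (adjusted p = 0.0097) and −0.76 ± 0.16 at 12 h (adjusted p = 0.00349). At 24 h (−0.50, adjusted p = 0.0559) and 48 h (−0.49, adjusted p = 0.0609) it was called only with the block, with adjusted p-values of 0.00277 and 0.00332. The 2 probe sets of Srsf2 correlated with r = 0.787 over the 27 arrays.

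Srsf1 (ASF/SF2), an SR protein that acts both in splicing and in the cytoplasm, had 2 tested probe sets that followed different courses. Probe set 104586_at read 8.09, 8.21 and 7.63 at 12 h and 8.64, 8.37 and 9.06 at 48 h, against 8.34, 8.75 and 8.64 at 0 h. Its change at 12 h was −0.60 ± 0.20 (adjusted p = 0.0669, and 0.0207 with the block). From 6 to 48 h it rose by 0.37 ± 0.09 log2 units per day (adjusted p = 0.0134). Probe set 160539_at read 8.45, 8.52 and 8.18 at 12 h and 8.42, 8.95 and 8.28 at 48 h, against values from 8.90 to 9.45 at 0 h. It was called lower only with the block, with a change of −0.73 at 12 h (adjusted p = 0.00391, and 0.115 without) and −0.75 at 24 h (adjusted p = 0.0034, and 0.114 without). Its slope was 0.03 per day, and its r with the first was 0.157. Whether the probe sets detect different Srsf1 transcripts was not tested.

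Further SR proteins were called at 12 h only with the block. Srsf3, the smallest member of the family, read 9.79, 8.87 and 8.85 on probe set 101004_f_at at 12 h, against 10.53, 9.74 and 9.78 at 0 h, a change of −0.84 ± 0.29 (adjusted p = 0.00358 with the block and 0.0757 without). All 3 experiments were lower by like amounts, while experiment 1 stood above the other two at each of the 2 times. The second tested Srsf3 probe set, 101003_at, changed by −0.33 at 12 h and was not called with or without the block. The 2 Srsf3 probe sets correlated with r = 0.288. Srsf10, which represses splicing when dephosphorylated, read 7.66, 7.27 and 7.80 on probe set 98048_at at 12 h, against 8.05, 8.43 and 8.59 at 0 h (−0.78, adjusted p = 0.0118 with the block and 0.172 without). Its 2 tested probe sets correlated with r = 0.028. Srsf3, Srsf10 and the other members called only with the block were chosen for mention after their values were seen. Tra2b, a splicing activator related to the SR proteins, read 10.38, 10.32 and 9.87 at 12 h, against 10.73, 10.69 and 10.18 at 0 h, a change of −0.34 ± 0.24 that was not called (adjusted p over the course 0.834).

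**Figure D4:**
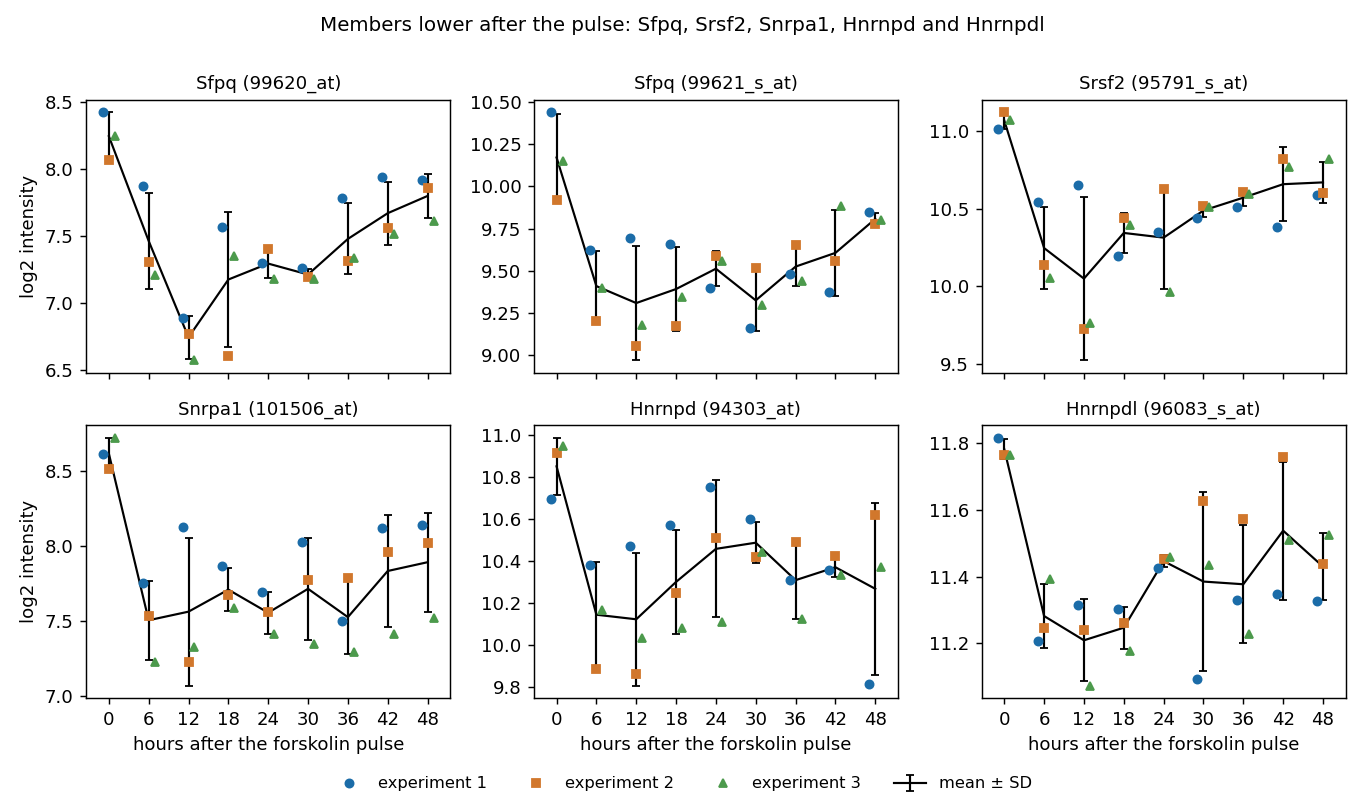
Log2 intensity (y axis) over hours after the pulse (x axis) for Sfpq, Srsf2, Snrpa1, Hnrnpd and Hnrnpdl probe sets; coloured points are the 3 experiments, black lines the mean ± SD over them. Sfpq 99620_at lies at 6.57 to 6.89 at 12 h, against 8.06 and above at 0 h, and Snrpa1 stays at or below 8.14 at every later time while its 0 h arrays are at 8.51 and above.

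Of the 19 hnRNP probe sets tested, 3 were called lower at 12 h, those of Hnrnpdl, Hnrnpd and Hnrnpk. The group's median change was −0.26 at 12 h and −0.16 at 6 h. Hnrnpdl, a relative of Hnrnpd, read 11.31, 11.24 and 11.07 on probe set 96083_s_at at 12 h, against 11.82, 11.77 and 11.77 at 0 h, a change of −0.57 ± 0.13 (adjusted p = 0.00588). The 0 h arrays lay within 0.1 of each other and above every later array. At 6 h it read 11.21, 11.25 and 11.39, a change of −0.50 ± 0.13 (adjusted p = 0.0184), and at 24 h −0.34 (adjusted p = 0.128, and 0.0366 with the block). Its second tested probe set, 96084_at, changed by −0.46 at 12 h (adjusted p = 0.182), and its mean on day 2 was 0.36 ± 0.10 above that of day 1 (adjusted p = 0.0363).

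Hnrnpd (AUF1), which binds AU-rich elements of unstable mRNAs, read 10.47, 9.86 and 10.03 at 12 h, against 10.69, 10.91 and 10.95 at 0 h. The change was −0.73 ± 0.20 (adjusted p = 0.0239), after −0.71 ± 0.20 at 6 h (adjusted p = 0.0345), where the arrays read 10.38, 9.88 and 10.16. Experiment 1 was again the least changed, although the times did not overlap. At 48 h it read 9.81, 10.62 and 10.37 (−0.58, adjusted p = 0.0796, and 0.03 with the block). Hnrnpk, which binds poly(C) stretches, read 10.10, 9.50 and 9.57 at 12 h, against 10.84, 10.22 and 10.38 at 0 h, a change of −0.75 ± 0.21 (adjusted p = 0.0233), and its 24 h change was −0.66 (adjusted p = 0.0527, and 0.00231 with the block).

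With the block, 2 more hnRNPs were called at 12 h, in opposite directions. Hnrnpab read 9.34, 9.45 and 9.41 on probe set 94896_at at 12 h, against 9.94, 9.95 and 9.90 at 0 h (−0.53, adjusted p = 0.00437 with the block and 0.0823 without), and at 48 h it read 9.70, 10.09 and 9.68. Hnrnph3 read 9.83, 9.40 and 9.66 at 12 h, against values from 8.81 to 9.23 at 0 h (0.62, adjusted p = 0.00113 with the block and 0.0797 without). Its 12 h arrays all stood above its 0 h arrays. Hnrnpr rose by 0.33 ± 0.09 per day from 6 to 48 h (adjusted p = 0.0283). It read 9.22, 9.23 and 9.30 at 12 h and 9.82, 9.87 and 10.20 at 48 h, against 9.56, 9.28 and 9.76 at 0 h.

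Snrpa1, the U2 snRNP protein that binds the U2 RNA together with Snrpb2, was the only one of 8 snRNP probe sets tested that was called without the block. It read 7.75, 7.53 and 7.23 at 6 h, 8.13, 7.23 and 7.33 at 12 h and 7.69, 7.56 and 7.42 at 24 h, against 8.61, 8.51 and 8.72 at 0 h. None of these arrays reached the 0 h range, and experiment 1 was the highest of the 3 at each time named except 0 h. The change was −1.11 ± 0.25 at 6 h (adjusted p = 0.00741), −1.05 ± 0.25 at 12 h (adjusted p = 0.00945) and −1.06 at 24 h (adjusted p = 0.00998). At 48 h it read 8.14, 8.02 and 7.52, a change of −0.72 (adjusted p = 0.0856, and 0.00783 with the block). The adjusted p over the course was 0.0682, and 0.00175 with the block. Snrpb, an Sm core protein and the member with the highest mean reading, read 13.31, 13.50 and 13.36 at 12 h, against 13.34, 13.64 and 13.75 at 0 h, which overlap (−0.19, adjusted p = 0.5). At 48 h it read 13.21, 13.29 and 13.25, a change of −0.33 that was called only with the block (adjusted p = 0.00985, and 0.168 without). Snrpd3, a further Sm protein, had a slope of 0.42 per day that was called only with the block (adjusted p = 0.00145, and 0.373 without). The group's median change at 12 h was −0.15. The dimmest member, Rbm22 on probe set 162395_r_at, was below the filter.

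No SF3a, SF3b or U2AF probe set of the 13 tested was called at 12 h, and 3 were lower with the block. Their median change was −0.13. Sf3b3, a subunit of the SF3b complex that contacts the branch site, was called lower at 6 h. It read 9.38, 9.44 and 9.35 at 6 h, against 9.96, 10.26 and 9.86 at 0 h (−0.64 ± 0.17, adjusted p = 0.0244), and at 12 h it read 9.89, 9.76 and 9.69 (−0.24, adjusted p = 0.471). The difference between its 6 h and 12 h changes was not tested. U2af1, the subunit of U2AF that reads the 3′ splice site AG, read 10.73, 10.68 and 10.71 at 12 h, against 10.93, 11.17 and 11.04 at 0 h (−0.34 ± 0.14, adjusted p = 0.165). U2af2, the large subunit that binds the polypyrimidine tract, differed more between experiments (means 12.05, 12.36 and 12.55, 63.7% of its variance) than over time. At 48 h it read 11.69, 12.32 and 12.48, against 12.23, 12.64 and 12.87 at 0 h (−0.42, adjusted p = 0.284, and 0.00402 with the block). U2af1l4 was not called over the course (adjusted p = 1).

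The PRPF proteins included members that moved in opposite directions. Prpf6, which bridges the U5 and U4/U6 snRNPs in the tri-snRNP, was the only member called higher than at 0 h without the block. It read 11.04, 11.07 and 11.09 at 6 h, 11.11, 11.19 and 11.34 at 12 h and 10.93, 10.96 and 11.09 at 18 h, against 10.80, 10.86 and 10.78 at 0 h. At 42 h it read 10.67, 10.53 and 10.83, and at 48 h 10.99, 10.76 and 10.78. The 6 h and 12 h arrays all stood above the 0 h arrays, while those at 42 h and 48 h overlapped them. The change at 12 h was 0.40 ± 0.11 (adjusted p = 0.0187), and after median centring it was 0.38 and no longer called. Its day 2 mean was below its day 1 mean by 0.27 (−0.27 ± 0.05, adjusted p = 0.00358), its slope was −0.24 ± 0.06 per day (adjusted p = 0.0147) and it varied over the course (adjusted p = 0.03).

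Prpf4b, a kinase that phosphorylates spliceosomal proteins, read 6.77, 6.48 and 7.29 at 12 h, against 8.05, 7.49 and 7.65 at 0 h. The change was −0.88 ± 0.25 (adjusted p = 0.0305), and at 6 h it was −0.83 (adjusted p = 0.0521, and 0.024 with the block). These 12 h readings are near the filter limit. Prpf38b rose by 0.25 ± 0.08 per day from 6 to 48 h (adjusted p = 0.0498), and it read 9.72, 9.54 and 9.89 at 48 h, against 9.09, 9.37 and 9.38 at 6 h. The median change of the 8 PRPF probe sets tested was 0.09 at 12 h.

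Among the other RBM proteins, none of the 11 tested was called at 12 h, and Rbm14 was lower later. Rbm14 (CoAA), a paraspeckle protein that acts as a transcriptional coactivator and in splicing, read 8.39, 8.30 and 7.90 at 24 h and 7.99, 8.67 and 8.16 at 48 h on probe set 100138_f_at, against 9.16, 9.20 and 9.17 at 0 h. The arrays of both later times lay below all 3 at 0 h. The change was −0.98 ± 0.25 at 24 h (adjusted p = 0.0154) and −0.90 ± 0.25 at 48 h (adjusted p = 0.0225), and it was the only member called at 48 h without the block. At 12 h experiment 1 read 9.26, above its 0 h value, while experiments 2 and 3 read 8.53 and 8.56. Rbm38 was higher at 12 h with the block only, at 7.83, 8.71 and 8.19 against 6.85, 7.83 and 7.86 at 0 h (0.73, adjusted p = 0.0161, and 0.245 without).

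Cirbp binds RNA in cooled cells and is known in mouse as a gene whose transcript follows body temperature through the day. It read 11.08, 10.68 and 10.74 at 0 h, 11.39, 10.64 and 10.85 at 12 h, and 11.34, 10.63 and 10.52 at 24 h. On day 2 it read 11.04, 11.06 and 10.95 at 36 h, and 10.90, 11.16 and 11.31 at 48 h. At 18 h it read 10.84, 10.59 and 10.71. Every later time overlapped the 0 h arrays, while the 18 h arrays lay below those of 36 h and 48 h, and its adjusted p over the course was 0.975. The amplitude of a 24 h cosine was 0.12 (unadjusted p = 0.255).

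**Figure D5:**
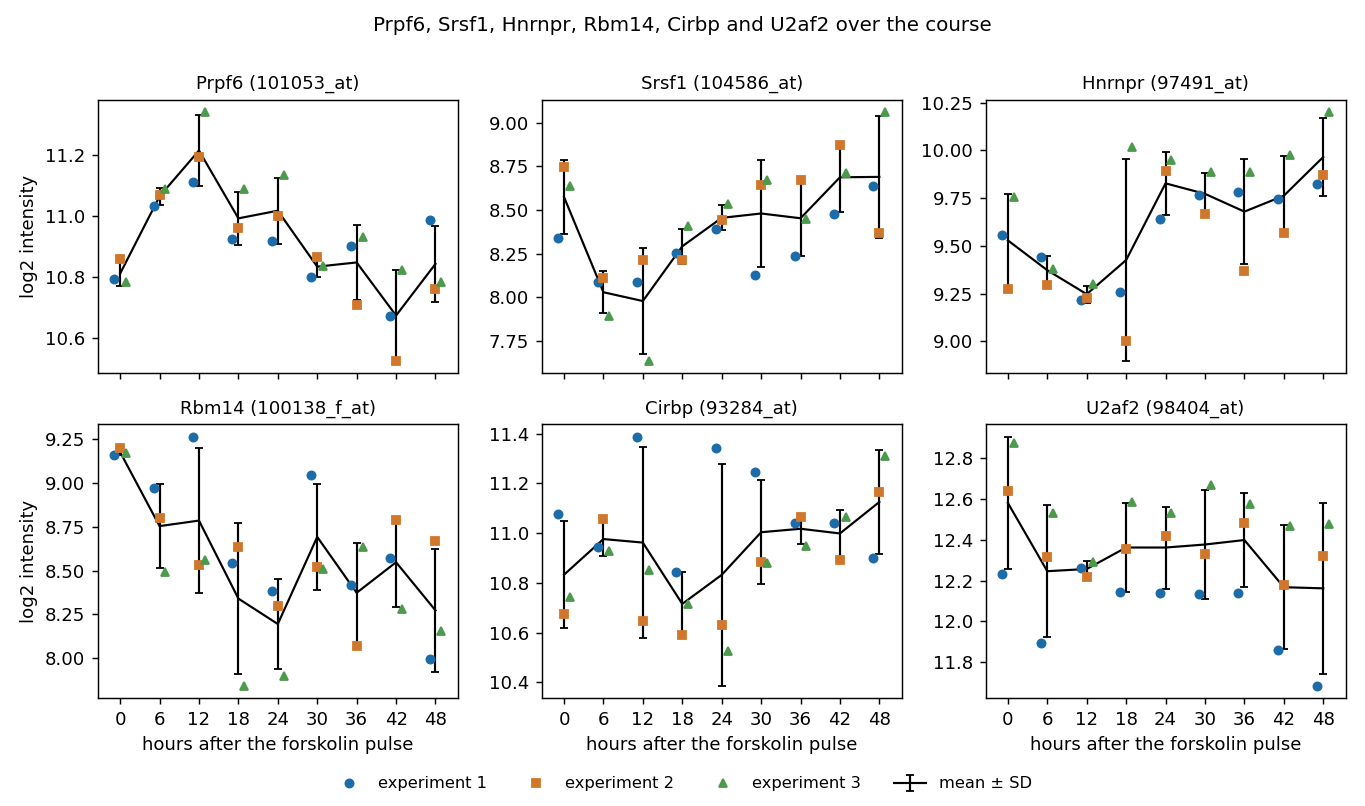
Log2 intensity (y axis) over hours after the pulse (x axis) for Prpf6, Srsf1, Hnrnpr, Rbm14, Cirbp and U2af2; coloured points are the 3 experiments, black lines the mean ± SD over them. Prpf6 peaks at 11.11 to 11.34 at 12 h, Rbm14 is lowest at 7.84 in experiment 3 at 18 h, and U2af2 is lowest in experiment 1 at all times but 12 h.

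Over the whole course, 4 members varied by the F test, 5% of 80 against 7.3% of all probe sets, namely 2 of Sfpq, 1 of Srsf2 and Prpf6. With the block 23 did, 28.8% against 26.4%, so the shares were below and near the background. Day 2 against day 1 gave 4 calls, 3 higher and 1 lower, 5% against 5.13% of all probe sets (2.24% higher and 2.88% lower). With the block there were 14, 12 higher and 2 lower, where 17.1% of all were called, 7.9% higher and 9.2% lower. The slope from 6 to 48 h gave 5 calls, 4 higher and 1 lower, 6.25% against 6.13% of all (2.83% higher and 3.3% lower). With the block there were 12, 10 higher and 2 lower, where 17.1% of all were called, 8.05% higher and 9.02% lower. Without the block, these 3 tests called no member without experiment 2 or 3, and 8, 10 and 10 without experiment 1. Without the 18 h and 30 h arrays of experiment 1, 3 members were called for day 2 and 3 for the slope, and Srsf2 and Hnrnpdl for day 2 and Srsf2, Hnrnpr and Prpf38b for the slope were no longer called. Srsf2 95791_s_at (0.36 ± 0.10, adjusted p = 0.0351) and Srsf1 104586_at (0.39 ± 0.10, adjusted p = 0.0219) were higher on day 2, and Srsf2 95791_s_at also had a slope of 0.33 ± 0.10 per day (adjusted p = 0.0401).

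No member was called for a 24 h rhythm, and no probe set of all 7453 was either (0% called), by limma with adjustment. As the test called no probe set at all, it cannot tell members with a rhythm from those without. The fit included the 18 h and 30 h arrays of experiment 1, on which Tef stood opposite to the other experiments. At an unadjusted p under 0.05 there was 1 member of 80, Sf3b3, with an amplitude of 0.17, against 248 of all 7453 probe sets. With the block there were 7 members, against 783 of all probe sets. Of these 7, Srsf11 had the smallest p (amplitude 0.18, adjusted p = 0.316). The median amplitude was 0.08 over the members and 0.09 over all probe sets.

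Where a gene had several tested probe sets they mostly pointed the same way at 12 h. Of 13 such genes, 11 had a single sign, and Hnrnpul2 (r = −0.462 between its probe sets) and Sf3b1 (r = −0.442) did not. A shared sign is weak evidence of agreement, since 59 of the 80 members were below 0 at 12 h. Among the 11 genes r ran from −0.127 (Prpf19) to 0.819 (Sfpq), and the 2 changes of Sf3a2 were −1.19 and −0.08. Time accounted for a median of 31.3% of a member's variance and the experiment for 28.4%, against 31.5% and 28.4% for all probe sets.

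RNA-binding and spliceosome genes outside the symbol rule were counted for comparison. Of 109 listed, 80 were on the array and 77 were tested. The shares of all probe sets called at the same times are given above beside the members' counts. For 12 h they were 4.6% higher and 3.73% lower, and with the block 10.9% higher and 9.5% lower. At 6 h 2 of them were lower, Pspc1 (−0.99 ± 0.23, adjusted p = 0.00832), a paraspeckle relative of Sfpq and Nono, and Elavl1 (HuR, −0.58 ± 0.16, adjusted p = 0.0279), and with the block 12 were lower and none higher. At 12 h 1 was higher, Matr3 (0.38 ± 0.10, adjusted p = 0.0197), and none was lower, with a median change of −0.17, and with the block 14 were lower and 2 higher. At 24 h Pspc1 was lower (−0.90, adjusted p = 0.0157), and Coil, the coilin of Cajal bodies, was higher (0.77, adjusted p = 0.0383), and with the block 11 were lower and 6 higher. At 48 h 1 was lower and 2 were higher, and with the block 11 and 5. Of 9 tested genes for kinases and a phosphatase of SR proteins, none was called by limma at 12 h and 1 was higher with the block. The kinase Prpf4b, called lower at 12 h, was on the same list but is counted among the members. Of 14 genes for cleavage and polyadenylation none was called at 6, 12, 24 or 48 h without the block. With the block 1 was higher at 6 h, 1 lower at 12 h, none at 24 h and 1 lower at 48 h.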

How the data were processed

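The authors deposited 1 linear intensity per probe set and array. They hybridised labelled cRNA from 27 samples to Affymetrix U74v2 arrays, per the labels' protocols, with a summarisation algorithm not given in the sources used here. The trimmed mean (2% off each end) was 499.9 on every array, and array medians ran from 166.8 to 200.7. Intensities were converted to log2(intensity + 12.1), the 10th percentile of all values, and quantile normalized. Controls and probe sets under the 40th percentile of mean log2 value (6.77) were left out, which kept 7453. Time means were compared with limma 3.58.1 in R 4.3.3 (eBayes with trend, Benjamini-Hochberg adjustment). Rhythm and slope were fitted on the 24 arrays from 6 to 48 h, as a cosine and sine of 24 h beside a linear term. The code was tested on simulated data.

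Gene names come from the platform annotation, and all 94 member symbols are current in RefSeq. Named are members called in each test with 1 sign in all 3 experiments (up to 10 each way), the smallest p of each role group, fixed genes (Cirbp, Tra2b, Sfpq, Nono, U2AF), and the brightest and dimmest member. Members and lists were chosen with earlier results of these data known. The 12 h comparison, and leaving out an experiment under the block, were added after seeing the data.

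Experiment numbers come from the labels. Deviations from the time means correlated within an experiment for all 36 pairs each, with r of 0.426 to 0.642 for experiment 1 and of 0.349 to 0.599 for experiment 2. Experiment 3 had 0.135 to 0.482, so the numbers pair the samples. The main fit has no block, and blocked values are given where they change a call or a count. No 2 arrays were identical. The labels say biological replicates without saying how far cultures were separate, so p-values measure the spread between these samples. With 3 arrays per time, their number limits the precision.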

Additional observations from a re-analysis of the deposited data

How the results depend on the processing

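The 37 calls given for single probe sets kept their direction under every alternative run in which they were tested. Of them 37 held their call with the experiment as a replicate block, 37 with a pseudocount of 1 or 50, 36 with intensities as deposited or with array weights, 33 without the eBayes trend, 32 without the filter, 31 without the 18 h and 30 h arrays of experiment 1, and 27 after median centring. Prpf38b (slope) lost its call under each of these except the block and the pseudocounts, and Prpf4b at 12 h without the filter. All 29 tested under the filter at the 60th percentile held.

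Counts moved more, and the cause was not tested. The shares of all probe sets called with the block are given above. For the other settings in this section, counts are given without that share. They therefore do not compare the members with the background. With the replicate block they were 23 members varying over time, 14 at 6 h, 21 at 12 h, 15 at 24 h, 14 at 48 h, 14 for day 2 and 12 for the slope. With array weights they were 13, 11, 17, 8, 5 and 11 for all of these but the slope. Without the filter there were 2 at 48 h, 2 for day 2 and 3 for the slope, and with the filter at the 60th percentile 7 at 12 h and 2 at 48 h. Without the eBayes trend 2 members varied over time and 3 had a slope, after median centring 2 were called for day 2 and 3 for the slope, without the 18 h and 30 h arrays of experiment 1 3 had a slope, and without rhythm terms 10 had. No setting gave a call for a rhythm.

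Leaving out 1 experiment gave 0 to 8 members varying over time, 0 to 5 at 6 h, 0 to 11 at 12 h, 0 to 5 at 24 h, 0 to 2 at 48 h, 0 to 10 for day 2, 0 to 10 for the slope and 0 for the rhythm. With the replicate block as well, the ranges were 1 to 23, 4 to 11, 11 to 20, 2 to 14, 2 to 11, 2 to 20, 3 to 18 and 0. Members near the filter limit, such as Sfpq 99620_at and Prpf4b at 12 h, are the least certain in size.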
